A study of Xenopus laevis with 2 samples.

Results

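Stretches of the Xenopus laevis genome that stayed free of accessibility peaks in early embryos were mapped, and 450 of them reached 50 kb. The peaks of both replicates were pooled, overlapping peaks were merged, and every gap of at least 50 kb between consecutive merged peaks on the 18 assembled chromosomes was kept. These were 450 of 385401 gaps, or 0.117%. The stretches were thus chosen by the measured start and end positions of the peaks, so their number, length and place are given as descriptions without a test.

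Wild-type 1-cell embryos had received 2.3 ng of a Dam-only construct (AID-Dam, given as Dam mRNA in the labels), and whole embryos were collected at 256 cells, 4.5 h after fertilization. At this stage, before zygotic genome activation (ZGA), the genome is largely silent. The single group held 2 replicates, each a pool of 500 embryos, every analysed embryo had received Dam, and non-injected controls were not analysed here. Accessibility was measured by CATaDa, in which a free bacterial methylase, Dam, marks adenine within GATC motifs of open DNA, and each replicate is represented by its list of broad peaks. The lists hold no read counts, so sequencing depth is unknown and a missing peak does not show closed chromatin. Replicate 1 had 325940 peaks on the assembled chromosomes and replicate 2 had 277520.

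A CATaDa peak needs GATC motifs for Dam to methylate, DNA that Dam can reach, and reads that can be placed in the assembly. Reads from repeated genes are hard to place, because the copies resemble each other. X. laevis is an allotetraploid frog whose chromosomes come in homeologous pairs, a longer L and a shorter S copy, inherited from separate ancestors. The presence of GATC motifs, repeats and unresolved bases within the stretches was not tested, as no genome sequence was used here, and no sequence is printed for the same reason.

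The stretches were only moderately longer than the limit that defined them. Together they covered 27.5 Mb, or 1.00% of 2741 Mb. Their median length was 57.6 kb, with an interquartile range from 52.7 to 65.0 kb, whereas the median of all gaps was 4758 bp. Gaps became rarer in each 10 kb class, from 896 between 40 and 50 kb to 270 between 50 and 60 kb, 98 between 60 and 70 kb and 48 between 70 and 80 kb. Only 3 exceeded 100 kb. The 3 gaps just inside it were 50000, 50013 and 50032 bp long, and the 3 just outside were 49994, 49982 and 49958 bp.

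The replicates differed in how much sequence they left without a peak. Replicate 1 alone had 942 gaps of at least 50 kb, covering 57.8 Mb (2.11% of the chromosomes), and replicate 2 alone had 1928, covering 120 Mb (4.38%). Replicate 2, with fewer peaks, thus had more and wider gaps. The gaps of both single lists had 29.997 Mb in common, which was 51.9% of the gap length of replicate 1 and 24.96% of that of replicate 2. Peaks of replicate 2 broke 492 of the 942 gaps of replicate 1 into pieces below 50 kb, and peaks of replicate 1 did so for 1480 of the 1928 gaps of replicate 2.

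Around each pooled stretch, the gap seen in a single replicate was usually little longer. A pooled stretch always lies inside a gap of each list, by construction, and this gap had a median of 59.95 kb in replicate 1 and 63.8 kb in replicate 2. Both ends were identical to those of the pooled stretch for 142 stretches in replicate 1 and for 166 in replicate 2. The longest single-list gap was 136 kb in replicate 1 and 194 kb in replicate 2, and the latter held 2 pooled stretches, both on 8L.

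**Figure D1:**
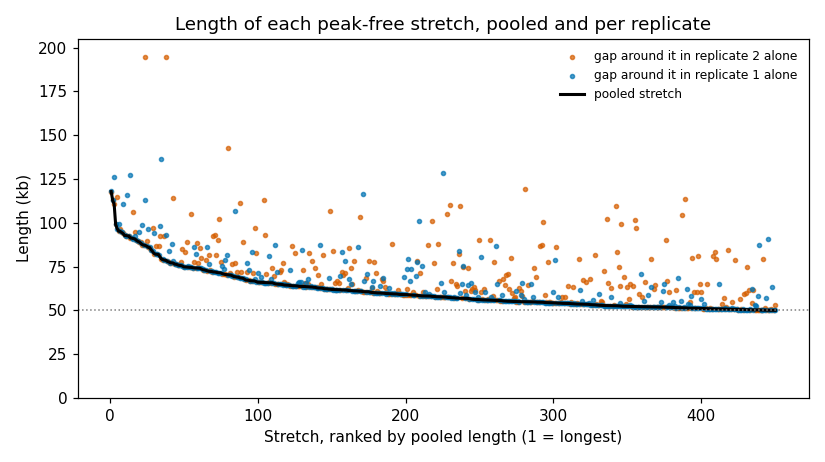
Length in kb of the 450 peak-free stretches ranked from longest to shortest (black line) with the length of the gap around each in replicate 1 alone (blue) and replicate 2 alone (orange); the dotted line marks 50 kb. Most single-replicate gaps lie on or just above the line (medians 59.95 and 63.8 kb), and the widest, 194 kb, is in replicate 2.

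The peaks bordering the stretches had values close to those of all peaks. A bordering merged peak was present in both lists on 55% of 900 sides, in replicate 1 only on 28.8% and in replicate 2 only on 16.2%. Over all 385419 merged peaks these shares were 55.7%, 28.3% and 16.0%. Fold enrichment is the caller's ratio of pileup to background. Its median was 4.52 over 754 sides with a bordering peak of replicate 1 and 4.73 over 641 sides for replicate 2. The medians over all single peaks were 4.34 and 4.50. On each side the highest value within the merged peak was taken, which can raise the border medians. For 134 stretches both borders were found in both lists, and for 89 each border was found in only 1 list, the same list on both sides for 52 and different lists for 37.

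Each edge is a peak by construction, so the nearest 10 kb outside the edges had a high peak coverage of 7.14% in replicate 1 and 6.60% in replicate 2. Beyond it, coverage was below the average of all assembled chromosomes. That average differed by chromosome, in replicate 1 from 4.52% on 1L, with 61 stretches, to 5.57% on 8S, with 9. The flanks were not compared with their own chromosome or segment, so how far placement alone lowers them was not tested. Between 10 and 20 kb outside the edges, peaks of replicate 1 covered 4.03% of the sequence and those of replicate 2 covered 3.69%. Between 500 kb and 1 Mb away these values were 4.58% and 4.28%, still under the 4.96% and 4.66% of all assembled chromosomes. These flanks include other stretches where these lie close by. In both replicates, every distance class examined from 1 kb to 1 Mb was below the average.

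**Figure D2:**
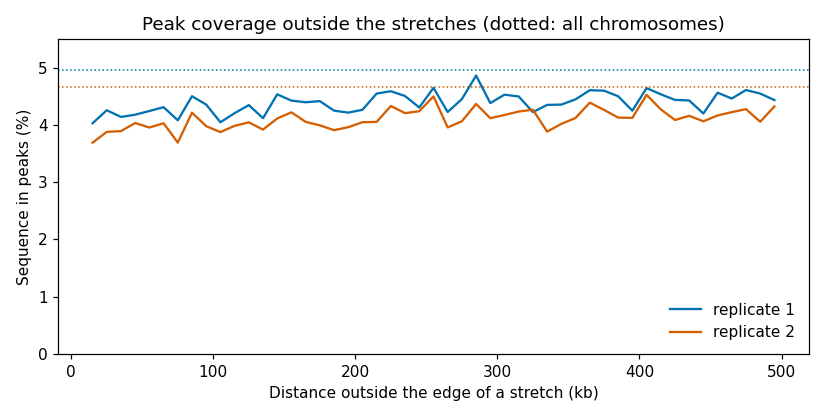
Percent of sequence in peaks against distance outside the edge of a stretch, in bins of 10 kb from 10 to 500 kb (the bin next to the edge, 7.14% and 6.60%, holds the border peak and is left out), over all 450 stretches and both sides, for replicate 1 (blue) and replicate 2 (orange). Both lines stay below the dotted averages of all assembled chromosomes, 4.96% and 4.66%.

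The 3 longest stretches lay on L chromosomes 1 and 2. The longest, 118 kb on 1L from 43247188 to 43365024, lay entirely within sgcz.L (gene ID 108698593), a 433 kb gene for a sarcoglycan, part of the complex that anchors muscle membranes. The gap there was 118 kb in each replicate. The second, 113 kb on 2L from 70082515 to 70195327, touched no annotated gene and was also 113 kb in each replicate. Both borders of these stretches were peaks found in both lists. The third, 111 kb on 2L from 41632023 to 41742637, held 2 lncRNA genes and a pseudogene. It was 126 kb in replicate 1 and 111 kb in replicate 2, so its left border rested on a peak of replicate 2 only.

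On 3S, a stretch of 99.1 kb from 22254025 to 22353092 covered 7.45 kb at the edge of polb.S (gene ID 397973), which encodes the repair enzyme DNA polymerase beta. A stretch of 96.7 kb from 78919558 to 79016263 followed on the same chromosome and held a 67 kb pseudogene. The sixth in length was an array of small nuclear RNA genes on 9_10L, described below. On 7S, a stretch of 94.5 kb from 63024275 to 63118762 covered 88.7 kb of robo3.S (gene ID 108704930), a receptor that guides growing axons. The remaining 3 of the 10 longest, on 2L (95.1 kb), 9_10S (93.9 kb) and 2S (92.7 kb), held no gene except a lncRNA gene in the first. In the last, both ends were identical in both replicates.

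L chromosomes carried more of the peak-free sequence than S chromosomes. Of the 450 stretches, 283 (62.9%) lay on L chromosomes, which make up 54.4% of the assembled length, and 167 on S chromosomes. Stretches covered 1.17% of L and 0.807% of S, with 19.0 and 13.3 stretches per 100 Mb. Lengths were alike, with medians of 57.9 kb on L and 57.0 kb on S. Merged peaks were also sparser on L, at 138 per Mb beside 144 on S.

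By pair, the covered share was 1.14% ± 0.373 on L and 0.784% ± 0.167 on S (SD over 9 chromosomes). The mean difference, S minus L, was -0.352 ± 0.378 percentage points (SD, n = 9 pairs), and L was higher in 7 of 9 pairs. Replicate 1 alone gave -0.794 ± 0.452 points and replicate 2 alone -1.23 ± 0.828 points, each with L higher in 9 of 9 pairs. Chromosomes are not replicates, and the pooled difference was smaller than its spread over pairs.

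The pairs differed widely. In pair 9_10, 1.52% of the L chromosome and 0.543% of the S chromosome lay in stretches (32 and 10 stretches). In pair 1 the shares were 1.63% and 0.994% (61 and 34 stretches), and 1L had the highest share of any chromosome. Pair 2 had 1.54% and 0.899%, pair 3 had 1.32% and 0.876%, and pair 8 had 0.990% and 0.509%. The copies were closer in pair 4, with 0.757% and 0.705%, and in pair 5, with 0.975% and 0.831%. The lowest share was that of 8S, with 9 stretches. In pair 6 the order was the opposite, 0.630% on L and 0.797% on S, and in pair 7 it was 0.864% and 0.906%. In pair 2, the difference was -1.01 points in replicate 1 and only -0.0236 points in replicate 2, so the replicates gave values far apart there.

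**Figure D3:**
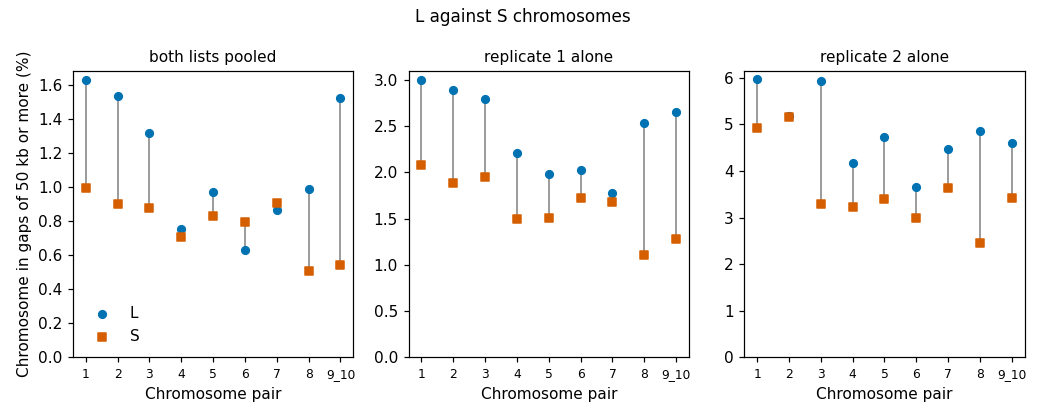
Percent of each chromosome in gaps of at least 50 kb for the 9 homeologous pairs, L in blue circles and S in orange squares, from pooled peaks, replicate 1 alone and replicate 2 alone (the vertical scales differ). L is above S in 7 pairs when pooled, with pairs 6 and 7 the other way, and in 9 pairs in each replicate alone.

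Along the chromosomes, stretches were most frequent in the middle and less frequent towards the ends, though not steadily so. The part from 40% to 70% of the chromosome held 196 stretches, or 43.6%, on 30% of the length. This share was 41.0% on L and 47.9% on S chromosomes, 41.9% in replicate 1 alone and 44.9% in replicate 2 alone. This zone was chosen after its values were seen. In successive segments of 10%, the one from 50% to 60% held the most, 76, covering 1.66% of its length, and the one from 80% to 90% the fewest, 24, covering 0.525%. Peaks covered 4.18% (replicate 1) and 3.86% (replicate 2) of the former, and 5.77% and 5.45% of the segment from 0% to 10%, which held 29 stretches. The segment from 90% to 100% held 35 stretches (19 on L and 16 on S), covering 0.793%, more than the segment from 80% to 90%. The outer 5 Mb at both ends held 20 stretches and 4.34% of the stretch length, on 6.57% of the chromosome length. In replicate 1 alone this was 3.98%, and in replicate 2 alone 2.70%.

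**Figure D4:**
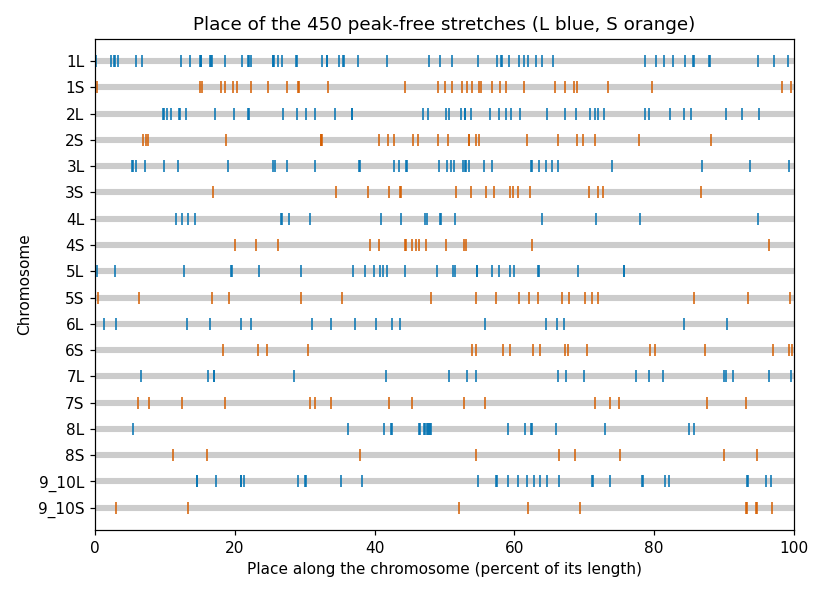
Place of the 450 peak-free stretches on the 18 assembled chromosomes, in percent of chromosome length, with L in blue and S in orange; each tick is the middle of a stretch. The 40% to 70% zone holds 196 stretches, and 7 ticks crowd together on 8L.

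Most neighbouring stretches lay more than 1 Mb apart, but whether they lay closer than an even spread would place them was not tested. The median distance between neighbours was 3.02 Mb, with 24 of 432 neighbouring pairs within 100 kb and 96 within 1 Mb. The closest pair lay on 2S, where stretches of 52.6 and 56.9 kb were separated by 310 bp, the width of a single peak of replicate 1 with a fold enrichment of 3.51. Replicate 2 had no peak there, so its list had no peak across the whole interval. On 5L, stretches of 59.7 and 51.9 kb were separated by 409 bp, with a peak in each replicate of fold enrichment 7.28 and 4.91. The second longest stretch, on 2L, was followed after 3760 bp by another of 63.5 kb.

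The densest group lay on 8L and included genes of the major histocompatibility complex (MHC), the region whose products present peptides to T cells. It was singled out after its values were seen, and the listed family of 4 genes with an mhc symbol had no member inside or touched. Between 63696575 and 65030127, a span of 1.33 Mb, 7 stretches summed to 438 kb, or 32.8% of the sequence. Left of this span, 8L had further stretches starting at 62706818 and 62970602, the latter with dmpk.L, which are not counted in the group. Peaks covered 2.41% of this span in replicate 1 and 2.10% in replicate 2, values that its choice for many stretches lowered. Of 31 protein-coding genes there, 12 had their midpoint within a stretch, beside 0.667% of all protein-coding genes. The choice of the span raised this count too, as stretches fill 32.8% of it.

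The stretch at its right end, 78.6 kb from 64951519 to 65030127, held psmb8.L, an immunoproteasome subunit that cuts peptides, and tap1.L, which with tap2.L forms the transporter that moves peptides into the endoplasmic reticulum. The midpoint of tap2.L was also inside. In replicate 1 alone the gap was 92.8 kb. Next to it on the left lay a stretch of 87.0 kb, and in replicate 2 both fell within the single gap of 194 kb named above. Further left, a stretch of 53.9 kb took in most of hla-dqa2.L, annotated as an MHC class II chain, and a stretch of 50.7 kb held the midpoints of tapbp.L, which links the transporter to class I molecules, and pfdn6.L, a subunit of the prefoldin chaperone. The leftmost, 54.4 kb, held cuta.L and the midpoint of phf1.L, a partner of Polycomb complex 2. Of these 8 genes with a symbol, 3 (phf1, pfdn6 and tapbp) had an S gene of the same symbol in the annotation table, and the remaining 5 did not. Other MHC-region genes of the same span, such as daxx.L, kifc1.L and rxrb.L, had their midpoints outside stretches.

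Genes were somewhat less frequent within stretches than elsewhere. Annotated genes spanned 45.1% of the stretch sequence and 48.9% of all assembled chromosomes, and protein-coding genes 40.01% and 46.3%. The midpoints of 377 of 44438 genes fell within stretches, or 0.848%, beside 1.00% of the sequence. Whole genes inside numbered 245 (0.551%), and 559 genes (1.26%) were touched. No gene touched 139 stretches, 100 lay within a single gene from end to end, and 98 held at least 1 whole gene. Genes are not independent replicates, so these shares carry no test.

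The gene classes differed. Protein-coding genes had 230 midpoints inside (0.667% of 34461), 1.48% in gaps of replicate 1 alone and 3.16% in gaps of replicate 2 alone. The lncRNA genes had 48 (1.23% of 3912), and annotated pseudogenes, disabled copies of genes, had 30 (1.66% of 1804). These pseudogenes lay in 20 stretches, among them that of the small nuclear RNA array described below. In replicates 1 and 2 alone, lncRNA genes had 2.12% and 4.73% and pseudogenes 2.88% and 4.32%. These were above the 1.74% and 3.36% of all genes. Gaps made up 2.11% and 4.38% of the sequence, however. Beside that, lncRNA genes were close to the share of sequence, and pseudogenes were above it in replicate 1 only. At the other end, 4 of 2612 tRNA genes (0.153%) and none of 375 rRNA and 579 snoRNA genes lay inside. In single replicates the contrast was smaller, with 36 tRNA genes (1.38%) in gaps of each replicate, beside 1.74% and 3.36% of all genes. For snoRNA genes the counts were 7 in replicate 1 (1.21%) and 4 in replicate 2 (0.691%). None of 211 V segments of the immunoglobulin and T-cell receptor loci lay in a pooled stretch. In gaps of replicate 1 alone there were 3 (1.42%, beside 1.74% of all genes). Replicate 2 alone had 20 (9.48%, beside 3.36%), so the class was above the share of all genes there.

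The largest share among classes with members inside was that of small nuclear RNA (snRNA) genes, the RNA components of the spliceosome and related particles, with 65 of 377 (17.2%). All 65 lay in a single stretch. It spanned 95.2 kb on 9_10L, from 52629986 to 52725165, and was 99.5 kb in replicate 1 and 95.2 kb in replicate 2. The genes were between 102 and 112 bp long, 44 of them exactly 107 bp, and followed each other at a median of 738 bp from start to start. The stretch also held 6 pseudogenes and the midpoints of 2 tRNA genes (trnam-cau and trnaq-cug), and genes filled 8.12% of it. Without this stretch, 0.684% of all gene midpoints remained inside and no snRNA gene did.

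No other snRNA cluster had a gene in a stretch. A cluster of 71 on 8L, spread over 378 kb, overlapped 75 peaks in replicate 1 and 68 in replicate 2. One of 33 genes on 1S overlapped 21 and 17 peaks. A cluster of 51 genes within 44.1 kb on 2L, overlapped 5 and 4 peaks, and its longest gap was 22.8 kb. Shorter clusters on 7L (8.28 kb) and 7S (13.5 kb) overlapped 1 peak in replicate 1 and 0 in replicate 2. Of 9 clusters with at least 10 snRNA genes, that of 9_10L was the only one to reach a gap of 50 kb between pooled peaks. From this cluster, 1 further gene lay outside the stretch. In single replicates more snRNA genes lay in such gaps, 81 (21.5%) in replicate 1 and 78 (20.7%) in replicate 2, beside 1.74% and 3.36% of all genes. Whether reads could be placed in these arrays was not tested.

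**Figure D5:**
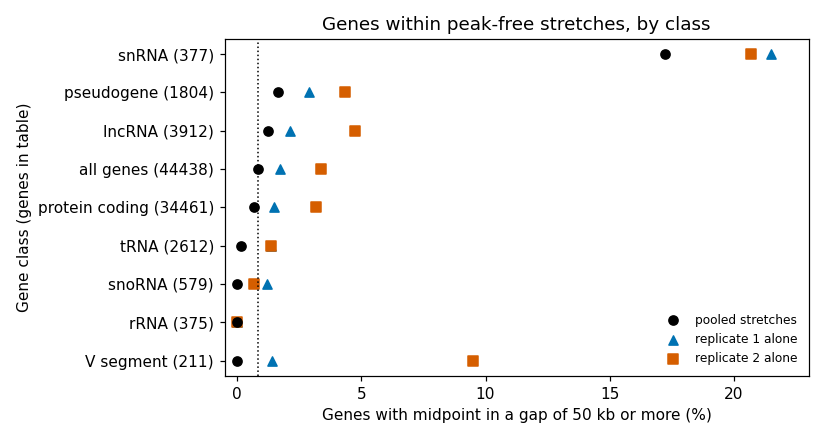
Percent of genes whose midpoint fell in a gap of at least 50 kb, by gene class with the number of genes in the table, for pooled stretches (black), replicate 1 alone (blue triangles) and replicate 2 alone (orange squares). The snRNA genes stand at 17.2% because of 1 array, against 0.848% of all genes (dotted line), and rRNA genes are at 0 throughout.

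Arrays of short genes, mostly protein-coding and similar in length, lay within further stretches. Whether the genes of an array are copies of one another was not tested. On 2L, a stretch of 63.7 kb from 59930677 to 59994336 held 13 short protein-coding genes and 2 pseudogenes with a median length of 1465 bp and a median spacing of 2621 bp. All lie within the span of the large gene scmh1.L and bear only locus numbers in the table, so their products are not named here. The gap was 84.5 kb in replicate 1 and 63.7 kb in replicate 2. On 3L, a stretch of 51.5 kb from 160221981 to 160273518 held 7 genes of 817 to 954 bp, among them or11l1.L, an olfactory receptor gene. The gap was 68.5 kb in replicate 1 and 51.5 kb in replicate 2. On 8L, a stretch of 68.3 kb held 6 unnamed genes of 846 to 970 bp, spaced more widely at a median of 11139 bp, in a gap of 68.4 kb and 89.2 kb. These arrays were picked for their number of genes after it was seen.

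Whole protein-coding genes inside stretches were mostly short, as a gene can lie inside only if it is shorter than the stretch. They numbered 115, of which 45 had a symbol other than a locus number, and had a median length of 5.13 kb beside 17.2 kb for all protein-coding genes. The longest with a symbol was atf2.L (59.2 kb), a stress-responsive transcription factor, in a stretch of 75.7 kb on 9_10L that was 75.7 kb in each replicate. It was followed by ednra.L (48.9 kb), a receptor for endothelin, in a stretch of 57.7 kb on 1L (65.8 kb in replicate 1 and 57.7 kb in replicate 2).

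A receptor, a methyltransferase, a ciliary gene and a transporter were among the next in length. The gene mchr2.S (45.5 kb), a receptor for melanin-concentrating hormone, lay in a stretch of 54.8 kb on 5S. The gap there was 74.3 kb in replicate 2 alone. At mettl22.L (44.7 kb), a methyltransferase, the gap was 59.4 kb in replicate 1 and 88.0 kb in replicate 2. A stretch of 52.1 kb on 2L held mks1.L (34.3 kb), a gene of the ciliary transition zone. At slc5a7.L (19.9 kb), the choline transporter of cholinergic neurons, the stretch was 57.3 kb long.

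Other whole genes in this list were diras2.L (26.2 kb), a small GTPase, in a stretch of 87.5 kb on 1L that also took in 18.6 kb of the tyrosine kinase gene syk.L. Also listed were tap1.L (22.9 kb), dmpk.L (21.8 kb), the myotonic dystrophy kinase, in a stretch of 50013 bp on 8L, and tex9.L (20.01 kb) in a stretch of 60.9 kb on 3L. The table gives no strand, so the distance of a start site to the nearest peak was not determined.

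Some genes of transcription factors were found inside too. They were chosen after their places were seen, so they do not stand for such genes as a class, and the listed hox and sox genes had none inside. The family with a forkhead symbol was also counted after its members were seen. Of its 81 protein-coding genes, 3 (3.70%) had their midpoint inside, beside 0.667% of all protein-coding genes. These 3 were foxo6.S (43.7 kb, in a stretch of 66.0 kb on 2S), foxb1.S (2.52 kb, in 52.2 kb on 3S) and foxd4l1.1.S (1.95 kb, in 54.6 kb on 1S), which lay wholly inside. So did fezf2.L (6.04 kb, in 70.7 kb on 4L), a forebrain regulator. The muscle regulator myf6.S (3.95 kb) lay near the left edge of a stretch of 77.1 kb on 3S, which was 77.2 kb in replicate 1 and 77.1 kb in replicate 2. Midpoints of tbx4.L, a limb regulator, maf.S and tshz1.S also fell inside, with 53.2, 34.9 and 54.0 kb of these genes free of peaks.

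Listed families of early, housekeeping or multigene function had few members inside. These are to be read beside the 0.848% of all genes and the 0.667% of protein-coding genes. No midpoint fell in a stretch for 56 hox genes, 34 sox genes, 141 ribosomal protein genes, 29 histone genes, 73 keratin genes or 69 cytochrome P450 genes. Among 193 genes with a zinc finger symbol only znf185.L did (0.518%), and among 120 genes with a kcn symbol, mostly potassium channel subunits, kcnip4.L and kcnk15.S did (1.67%). Of 38 glutamate receptor genes grin2b.L was inside (2.63%), of 27 protocadherins pcdh7.L, and of 8 teneurin, contactin and neurexin genes cntn1.L. The T-cell receptor constant gene trac.L contained a stretch of 61.2 kb. Families were matched by symbol alone, so members that carry only a locus number were missed, and with counts of 0 to 2 no group can be told from the background.

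Stretches that lay within a gene from end to end were found in long genes. There were 95 such host genes, 85 of them protein-coding, with a median length of 240 kb, and 57 were at least 200 kb long. A long gene has more room for a stretch, so its length is no finding. Among those with 2 stretches each were ptprd.L (955 kb), a receptor phosphatase of synapses, with 71.0 and 50.2 kb, and cadm2.L (892 kb), a synaptic adhesion molecule, with 58.2 and 50.1 kb. The protocadherin gene pcdh7.L (525 kb) had 54.1 and 51.2 kb, and tmem132e.L (240 kb) had 70.2 and 52.3 kb, which lay 1587 bp apart. The glutamate receptor gene grid1.S (547 kb) held a stretch of 92.5 kb, where the gap in replicate 1 alone was 116 kb. In col12a1.S (140 kb), a collagen gene, a stretch of 90.8 kb filled most of the gene.

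Homeologous copies allowed a look at the same genes on the partner chromosome, whose peaks did not set the bounds of these stretches. The same rule, applied to the partner's own peaks, decided whether a homeolog lay in a stretch. Whether reads of similar copies were placed on the wrong homeolog was not tested. Among 15528 protein-coding genes with exactly 1 L and 1 S copy by symbol, 81 (0.522%) had their midpoint in a stretch. None of their 81 homeologs had its midpoint in a stretch or was touched by one. By any overlap, stretches touched 139 of the 15528 paired genes. They fell in 137 pairs, 2 of which had a stretch in both copies. One was sgcz, with the longest stretch in the L copy and one of 61.1 kb in sgcz.S. The other was ptprd, with 57.0 kb in ptprd.S beside the stretches of the L copy given above. With a background this low, few such coincidences could occur. Both genes are long, with 433 and 426 kb for sgcz and 955 and 998 kb for ptprd. A long gene has more room for a stretch. The homeologs had 0.988 peaks per 10 kb in replicate 1 and 0.833 in replicate 2, beside 1.21 and 1.03 for all paired genes. The values for the 81 genes themselves were 0.567 and 0.457, which the rule itself lowered.

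Of 25 paired genes that lay wholly inside a stretch, and so had no peak, 19 had a homeolog with at least 1 peak, 18 of them in replicate 1 and 12 in replicate 2. For example, grxcr1.S on 1S had 7 peaks in replicate 1 and 6 in replicate 2, but is 72.5 kb long, whereas grxcr1.L spans 19.2 kb. The endothelin receptor copies are closer in length, and ednra.S (58.2 kb) had 3 peaks in each replicate. For nsa2, a ribosome assembly factor, the S copy (14.8 kb) had 5 peaks in each replicate, and the stretch held all 7.11 kb of the L copy. No peak was present in either copy of 6 genes, gdf15, omg, foxb1, fezf2, uqcrfs1 and mtln, all of which are short. The homeologs had a median length of 14.8 kb, beside 9.72 kb for the 25 genes. How far these differences between copies exceed those of any other homeologous genes was not tested. The share of all paired genes with at least 1 peak is not given here, so the count of 19 has no background beside it.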

How the data were processed

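The data were 2 lists of broad peaks from CATaDa of X. laevis embryos, 1 list per replicate. Per the study's methods, the authors cut methylated GATC motifs with DpnI, amplified the fragments, processed the reads with the damidseq pipeline, mapped them to assembly v10.1 with bowtie2 and called peaks per replicate with MACS (version 3.0.1 per the labels). Whether MACS used a control, and at which threshold, was not given in the sources used here. The deposited columns used were peak positions, the fold enrichment (a ratio to the caller's background) and the -log10 q; the deposited -log10 p was not used. Only positions defined the stretches. Reads that map to several places affect the calls in repeated sequence, and how the authors treated them was not given in the sources used here. Depth is unknown, so no counting interval was computed.

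Peaks on 18 assembled chromosomes were pooled and merged (Python 3.11.15, numpy 2.4.6, pandas 2.3.3), and gaps of at least 50 kb were kept. Coordinates count from 1. The merging and gap steps were tested on simulated peaks with planted gaps. Chromosome length was the last coordinate in peaks or genes. Genes came from the RefSeq table of the same assembly, 44438 on assembled chromosomes, placed by midpoint; it gives no strand, exons or sequence. The planned count of GATC motifs in promoters was therefore not run. Genes named in the text were those with a symbol in the 10 longest stretches, the 12 longest such protein-coding genes wholly inside, up to 3 members of each listed family, and those stated as chosen after their values were seen; 1 gene that met this rule is not reported here. The stretches and gene lists were chosen with earlier results of these data known. No test was run, since there is 1 group of 2 replicates and the peaks chose the regions.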

Additional observations from a re-analysis of the deposited data

How the results depend on the processing

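The alternatives were planned, apart from leaving out the 8L group with its neighbouring stretches, pair 1 and the snRNA array. Those were chosen after the data were seen. Of 31 values recomputed with both replicates, 22 stayed within 1.5 times (counts) or within the SD of the single-replicate values. Of the rest, 8 moved further and 1 was in another unit with the same direction. None changed sign, which only the L against S difference could have done. That SD was wide, 1.61 percentage points for the share of sequence and 1.14 for gene midpoints. Both exceed the pooled values of 1.00% and 0.848%, so no decrease could count as a move for these 2 results. The limit of 100 kb gave 0.0124% and 0.00675%, and both counted as within the SD. Staying within it therefore says little. Lengths of at least 25 kb gave 9091 stretches on 10.96% of the sequence, and lengths of at least 100 kb gave 3, a difference of -0.0186 points between S and L, and 0% of their length in the outer 5 Mb. Both follow from the limit itself. Keeping only peaks that overlap the other replicate gave 4148 stretches on 9.90%, since fewer peaks remain. A -log10 q of at least 2 gave 617 stretches (1.38%) and a fold enrichment of at least 3 gave 638 (1.42%). The outer 10 Mb held 10.2% of the stretch length, on 13.1% of the sequence. Leaving out each replicate in turn gave 942 to 1928 stretches, 2.11% to 4.38% of the sequence, a mean S minus L share between -1.23 and -0.794 points, 2.70% to 3.98% of the length in the outer 5 Mb and 1.74% to 3.36% of gene midpoints. The L against S difference was -0.307 points without the 8L group and the 8L stretches starting at 62706818 and 62970602. It was -0.316 without pair 1 and -0.273 without pair 9_10. By number it was -5.56 stretches per 100 Mb, with L higher in 8 of 9 pairs. Counting the chromosome ends added no stretch, but length was the last coordinate in peaks or genes, so sequence beyond it could not count. No paired analysis was possible because the series has a single group and no test was run. GATC content was not run, as no sequence was used here.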
